A study of Mus musculus with 4 samples.

Results

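The S100 calcium-binding protein genes were examined on 4 mouse arrays, 1 for each of 4 sorted bone marrow populations. The members were 8 listed genes, S100a1, S100a4, S100a6, S100a8, S100a9, S100a10, S100a11 and S100a13, out of 12393 genes that the arrays name, and they were found through the platform annotation of the probe sets. In all, 7 of the 8 had a probe set of their own, 9 probe sets together, while S100a11 was read only by 1 probe set that the annotation gives to 3 genes. The mice were untreated C57BL/6 animals, 8 weeks old, backcrossed for at least 10 generations and kept free of specific pathogens, and all of them carried a GFP sequence knocked into the Gfi1 locus. Gfi1 is a transcriptional repressor that steers myeloid precursors, and the study asks how it bears on the choice between monocytes and granulocytes. The first population was CD11b+, Gr1-low cells of the genotype with the insertion on both alleles (GFP:Gfi1 KI/KI), which lacks Gfi1. The others were of the heterozygous genotype (GFP:Gfi1 KI/WT), as the GFP-high and the GFP-low fraction of CD11b+, Gr1-low cells and as CD11b+, Gr1-high granulocytes. In this order, the 4 populations are called Gfi1-deficient cells, GFP-high cells, GFP-low cells and granulocytes below. The heterozygous populations also carry a knock-in allele. No GFP gate is named for the Gfi1-deficient cells, so genotype and sort cannot be told apart in comparisons with them, and how many animals gave each RNA is not stated in the labels.

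S100 proteins are small, mostly dimeric proteins in which a pair of EF-hand loops binds calcium, and the calcium-bound form exposes a surface that docks onto target proteins. S100A8 and S100A9 form calprotectin, an abundant protein of the neutrophil and monocyte cytosol that withholds metal ions from microbes and, once released, acts on Toll-like receptor 4. S100A4 and S100A6 act on the cytoskeleton and on cell movement, S100A10 and S100A11 pair with annexins at membranes, and S100A13 takes part in the export of proteins that lack a signal peptide.

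The genes lie on mouse chromosome 3. In the RefSeq gene order, S100a1 and S100a9 enclose 10 further protein-coding genes, among them S100a13, S100a4, S100a6 and S100a8, and 56 protein-coding genes separate S100a9 from S100a11, whose next coding neighbour is S100a10. The 250 bases before the start of 4 members are shown because the results turn on them: S100a8 and S100a9 are the calprotectin pair, and S100a4 and S100a6 are near neighbours with unlike values. They are taken from RefSeq promoter windows of the build GRCm38.p6, which held 7 of the 8 members and not S100a10. Capitals mark a TATAAA box on the gene's strand, or the letters TTGCNNAA, a C/EBP-type motif, on either strand. The windows are chr3:90668821-90669070 on the plus strand for S100a8, chr3:90695722-90695971 on the minus strand for S100a9, chr3:90603520-90603769 on the plus strand for S100a4 and chr3:90612644-90612893 on the plus strand for S100a6.
S100a8: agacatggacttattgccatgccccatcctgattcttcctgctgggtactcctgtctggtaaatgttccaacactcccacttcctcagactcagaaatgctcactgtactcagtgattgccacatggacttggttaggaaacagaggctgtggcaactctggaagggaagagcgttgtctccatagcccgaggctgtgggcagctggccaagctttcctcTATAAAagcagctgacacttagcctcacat
S100a9: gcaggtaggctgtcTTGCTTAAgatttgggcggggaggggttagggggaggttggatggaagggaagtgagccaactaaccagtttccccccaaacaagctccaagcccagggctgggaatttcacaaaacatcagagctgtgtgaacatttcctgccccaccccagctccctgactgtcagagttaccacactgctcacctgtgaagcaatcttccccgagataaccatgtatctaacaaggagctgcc
S100a4: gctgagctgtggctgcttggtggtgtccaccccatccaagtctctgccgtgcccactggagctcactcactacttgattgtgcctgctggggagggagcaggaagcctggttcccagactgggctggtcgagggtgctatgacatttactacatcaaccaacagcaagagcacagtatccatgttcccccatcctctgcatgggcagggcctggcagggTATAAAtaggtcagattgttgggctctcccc
S100a6: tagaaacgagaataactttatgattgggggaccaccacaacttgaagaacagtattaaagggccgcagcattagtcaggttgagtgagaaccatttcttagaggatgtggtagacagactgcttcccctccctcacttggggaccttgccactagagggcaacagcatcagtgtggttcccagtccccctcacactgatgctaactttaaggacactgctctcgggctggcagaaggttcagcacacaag

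TATAAA lay 30 bases before the S100a8 start and 31 bases before the S100a4 start (its first base), and it was not found in the other 5 windows, against a share of 7.60% of 32817 windows of this length over all genes. TTGCNNAA was found 1 time, in the S100a9 window, as ttgcttaa on the gene's strand, with its first base 236 bases before the start, and 9.57% of all windows hold it. GAGGAA, the core of the PU.1 motif, searched on both strands, was found 2 times before S100a8 and 1 time before S100a11, against 23.3% of all windows. AATC, the core that Gfi1 recognises, searched on both strands, was found in each of the 7 windows, 2 times in those of S100a4, S100a8, S100a9 and S100a11 and 1 time in those of S100a1, S100a6 and S100a13. So short a word was present in 69.0% of all windows. No match overlaps another in these windows, and a GAGGAA match of S100a8 directly adjoins the TATAAA. Such matches are letters in a window and not measured binding sites.

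Each value is a log2 expression value deposited by the authors for a probe set on an array, so a difference of 1 is 2-fold. There was 1 array per population, so no test between populations was possible, and every value describes these arrays without a replicate check. Low values were set apart by a floor of 5.18, the 40th percentile over the 4 arrays, and the 7 members with their own probe set were above it on all 4 arrays. The error that the arrays allow is the scatter between 2 probe sets of the same gene, computed as an SD for each comparison over 2658 to 2847 genes. It ranged from 0.16 for Gfi1-deficient minus GFP-low cells to 0.39 for granulocytes minus Gfi1-deficient cells on the log2 scale, and it does not cover the spread between animals.

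The sorted populations were checked against Gfi1 itself and marker genes. Gfi1 read 10.31 in GFP-high cells, 7.31 in granulocytes, 5.18 in Gfi1-deficient cells and 3.74 in GFP-low cells, the last of these below the floor and the one before at it, and whether the probe set lies in the replaced part of the gene is not known here, so it does not check the knock-out. All 10 monocyte markers read on the arrays, such as Csf1r and Irf8, were lower by 2-fold or more in GFP-high than in GFP-low cells, and their summed linear signal was 52699 in GFP-low cells, 50072 in Gfi1-deficient cells, 2725 in GFP-high cells and 6271 in granulocytes. All 5 primary granule genes read, such as Mpo and Elane, were higher by 2-fold or more in GFP-high than in GFP-low cells (Gfi1, which the list also holds, is left out here because its reporter set the gate), so the GFP-high fraction, labelled as monocytes, went against that label, and the word is not used for it here. Secondary granule markers summed to 40263 in GFP-low cells, 19535 in Gfi1-deficient cells, 99079 in GFP-high cells and 104972 in granulocytes. Mature neutrophil markers summed to 2543, 2124, 4995 and 39754 in the same order. Of these 7 neutrophil markers, 3 were higher and 3 lower by 2-fold or more in GFP-high than in GFP-low cells. The larger sum in GFP-high cells thus does not hold for each marker. Markers of other blood cells were above the floor on an array for 3 to 5 of 7 B cell genes, 2 to 3 of 6 T and NK cell genes, 3 of 3 erythroid genes, 4 of 5 megakaryocyte genes, 4 to 5 of 6 eosinophil, basophil and mast cell genes and 4 to 5 of 6 dendritic cell genes. The array of Gfi1-deficient cells also stood apart in Xist, a transcript of X inactivation, with a log2 value of 5.80 against 9.56 to 10.93 on the other arrays, and in transcripts of the Y chromosome, Eif2s3y, at 8.31 against 3.40 to 4.39, and Kdm5d, at 6.08 against 3.12 to 3.39. These sex-linked transcripts moved with the genotype, so sex, genotype and sort cannot be told apart in comparisons with that array. In bulk samples such as these, fewer cells of a type and less RNA per cell cannot be told apart.

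Over the 7 members, the comparisons differed in how many genes were 2-fold or more apart. Between GFP-high and GFP-low cells, 4 of 7 members were apart by 2-fold or more, 3 lower and 1 higher in GFP-high cells, against 18.6% of 8232 genes in either direction, 9.61% lower and 9.03% higher. Between granulocytes and GFP-low cells, 3 of 7 were lower in granulocytes and 0 higher, against 28.2% of 8503 genes in either direction, 18.2% lower and 10.0% higher. Between granulocytes and GFP-high cells, 2 members were higher and 1 lower in granulocytes, against 25.3% in either direction, 8.93% higher and 16.4% lower. Between Gfi1-deficient and GFP-low cells, 1 of 7 was apart, lower in Gfi1-deficient cells, against 1.91% in either direction, 1.27% lower and 0.637% higher. Between Gfi1-deficient and GFP-high cells, 5 of 7 were apart, 3 higher and 2 lower in Gfi1-deficient cells, against 17.3% in either direction, 9.53% higher and 7.81% lower. Between granulocytes and Gfi1-deficient cells, 5 of 7 were apart, 2 higher and 3 lower in granulocytes, against 31.5% in either direction, 11.2% higher and 20.3% lower. The family did not move as a unit in any comparison, since members lay on both sides of 0 each time, and its median log2 difference stayed between -0.36 and 0.28, beside medians over all genes of -0.02 to 0.03. The comparisons share arrays and are not independent of each other.

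**Figure D1:**
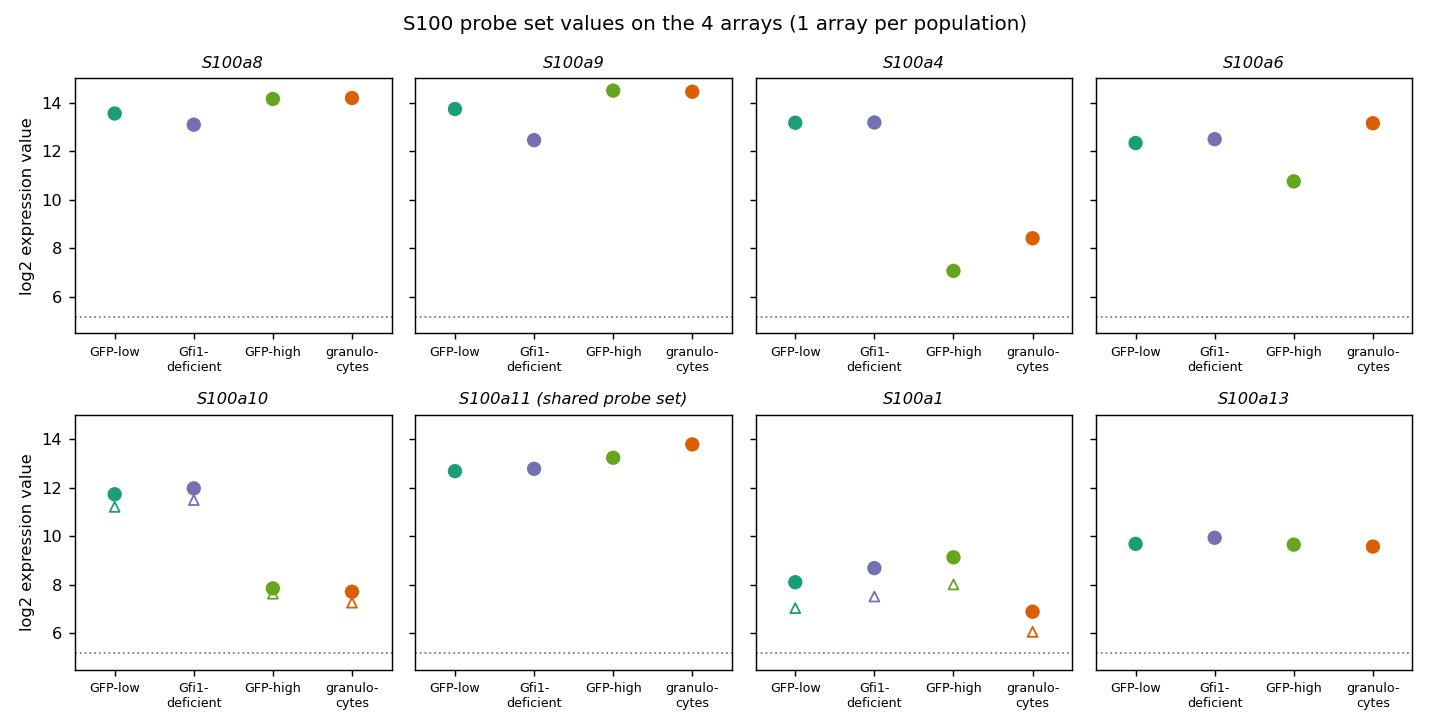
Log2 expression values (vertical axis) of the 8 S100 genes in the 4 populations (horizontal axis), 1 array each; filled circles are the probe set that stands for the gene, open triangles its dimmer probe set, and the dotted line is the floor of 5.18. S100a4 and S100a10 are high in GFP-low and Gfi1-deficient cells and low in the remaining populations, S100a8 and S100a9 are lowest in Gfi1-deficient cells, and S100a13 is flat.

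The calprotectin genes S100a8 and S100a9 were near the top of the scale in every population and lowest in Gfi1-deficient cells. S100a8 read 13.55 in GFP-low cells, 13.09 in Gfi1-deficient cells, 14.15 in GFP-high cells and 14.19 in granulocytes. S100a9 read 13.74 in GFP-low cells, 12.46 in Gfi1-deficient cells, 14.50 in GFP-high cells and 14.45 in granulocytes. Both genes thus had the same 2 populations above the other 2, with Gfi1-deficient cells at the bottom. The S100a9 probe set held the highest value of all 22690 probe sets on the GFP-high array and on the granulocyte array, and S100a8 ranked number 5 and number 3 there, so both genes were read at the upper end of the scale, where an array can be compressed, and no table here measures how far.

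GFP-high cells and granulocytes differed by less than the probe set scatter in these genes, with log2 differences of 0.04 for S100a8 and -0.05 for S100a9 against a scatter of 0.32. Against GFP-low cells, S100a8 was 1.51-fold and S100a9 1.69-fold higher in GFP-high cells, and 1.56-fold and 1.64-fold higher in granulocytes. These differences of 0.60 to 0.76 were larger than the scatter and under the 2-fold rule. For GFP-high cells, the S100a8 and S100a9 sizes exceeded those of 66.8% and 73.8% of the 8232 genes compared. For granulocytes, the shares were 55.5% and 59.9% of 8503 genes. The part of compression at the top of the scale in these sizes was not tested.

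In the Gfi1-deficient cells both genes of the pair were lower, S100a9 more so. Against GFP-low cells, S100a9 was 2.44-fold lower in Gfi1-deficient cells, a log2 difference of -1.28 at a scatter of 0.16, and its size exceeded that of 98.9% of the 8010 genes compared. S100a8 was 1.38-fold lower, a log2 difference of -0.46. Against GFP-high cells the log2 differences were -2.04 for S100a9 and -1.06 for S100a8, and granulocytes exceeded Gfi1-deficient cells by 3.99-fold and 2.15-fold. S100a9 therefore differed by 0.82 to 0.98 more than S100a8 in each comparison with Gfi1-deficient cells, and by 0.16 or less in the comparisons among the heterozygous populations.

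Granulocytic markers went both ways in Gfi1-deficient against GFP-low cells, where 1.27% of all genes were lower and 0.637% higher by 2-fold or more. Of 7 secondary granule markers read on the arrays, Gfi1-deficient cells had 3 lower by 2-fold or more than GFP-low cells and 0 higher. They were Camp, which encodes cathelicidin, at 7.37 against 12.41, Ltf, which encodes lactoferrin, at 7.36 against 12.18, and Ngp, which encodes the neutrophilic granule protein, at 9.80 against 13.32. All 7 were above the floor on both arrays. The other members were Lcn2, with a log2 difference of -0.68, Cd177, with -0.33, Chil3, with -0.07, and Mmp8, with 0.71. Primary granule genes were higher by 2-fold or more in Gfi1-deficient cells for 5 of 5, among them Mpo, at 11.42 against 8.08, and Elane, at 11.75 against 9.31. Of 5 eosinophil, basophil and mast cell markers, 2 were higher by 2-fold or more and 0 lower. They were Epx, at 8.11 against a value below the floor, and Prg2, at 10.54 against 7.53. Both were highest in GFP-high cells, at 10.18 and 12.16. Of 5 dendritic cell markers, 4 were lower by 2-fold or more. Of 7 mature neutrophil markers, 1 was lower by 2-fold or more, the gelatinase gene Mmp9, at 5.94 against 8.45. The part of these cell types in the S100a9 difference was not tested.

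Receptor genes for extracellular S100 proteins were a list of 10, of which 9 were read. In GFP-high against GFP-low cells 1 of 9 was higher by 2-fold or more and 2 lower, against 9.03% and 9.61% of all genes. In granulocytes against GFP-low cells 2 were higher and 0 lower, against 10.0% and 18.2%. In Gfi1-deficient against GFP-low cells none passed 2-fold in either direction (0 of 9), against 1.91%. On so short a list, these counts do not set the receptors apart from all genes. Granulocytes exceeded GFP-high cells by at least 2-fold for 4 of 9, against 8.93% of all genes. Ly96, which encodes MD-2, the partner of Toll-like receptor 4 in ligand binding, read 7.85 in GFP-low cells, 7.60 in Gfi1-deficient cells and 7.78 in granulocytes, and lay below the floor in GFP-high cells at 4.86. Cd14, the co-receptor that hands ligands to this complex, read 10.13 in GFP-low cells, 10.82 in Gfi1-deficient cells, 8.49 in GFP-high cells and 10.05 in granulocytes. GFP-high cells had the lowest values of both Ly96 and Cd14 among the populations. Cd14 is also among the 10 monocyte markers counted above. Cd33, a lectin receptor that binds S100A9, was highest in granulocytes, at 7.09 in GFP-low cells, 7.32 in Gfi1-deficient cells, 9.06 in GFP-high cells and 11.02 in granulocytes.

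S100a4, whose protein binds non-muscle myosin and promotes cell movement, divided the populations most sharply. It read 13.17 in GFP-low cells, 13.18 in Gfi1-deficient cells, 7.06 in GFP-high cells and 8.41 in granulocytes. The first 2 populations were level, with a log2 difference of 0.01, and both were far above the other 2. S100a4 was 69.0-fold lower in GFP-high than in GFP-low cells and 27.1-fold lower in granulocytes, and granulocytes exceeded GFP-high cells by 2.54-fold, a log2 difference of 1.35 at a scatter of 0.32. Against Gfi1-deficient cells the gaps were of the same size, 69.5-fold for GFP-high cells and 27.4-fold for granulocytes. S100a4 is also the gene with the greatest span of the 7 members, 6.12 log2 units.

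S100a6, with S100a5 between it and S100a4, encodes calcyclin and did not follow S100a4. It read 12.34 in GFP-low cells, 12.49 in Gfi1-deficient cells, 10.75 in GFP-high cells and 13.15 in granulocytes. Granulocytes, which had low S100a4, had the highest S100a6 of the 4 populations, while GFP-high cells had the lowest of both genes. The S100a6 difference between granulocytes and GFP-high cells was 5.27-fold, and GFP-high cells were 2.99-fold below GFP-low cells and 3.34-fold below Gfi1-deficient cells. Granulocytes exceeded GFP-low cells by 1.76-fold and Gfi1-deficient cells by 1.58-fold, both under the 2-fold rule. In the comparison of granulocytes with GFP-low cells, the log2 difference of S100a4 was -4.76 and that of S100a6 0.82, so these near neighbours differed from each other by 5.58. S100a5 was below the floor on all 4 arrays.

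The intracellular targets of S100 proteins were a list of 13 genes, with 12 named on the arrays and 9 above the floor. In the comparisons among GFP-low, Gfi1-deficient and GFP-high cells, 0 of 9 were apart by 2-fold or more. The shares over all genes were 18.6% for GFP-high against GFP-low cells, and 17.3% and 1.91% for Gfi1-deficient against GFP-high and GFP-low cells. Granulocytes were lower for 3 of 9 against GFP-low cells, where 18.2% of all genes were lower. Against GFP-high cells they were lower for 5 of 9, beside 16.4% of all genes. Against Gfi1-deficient cells they were lower for 3 and higher for 1 of 9, beside 20.3% and 11.2%. The shares over all genes in either direction were also larger in the comparisons with granulocytes. They were 28.2% against GFP-low, 25.3% against GFP-high and 31.5% against Gfi1-deficient cells. Tubb5, a beta-tubulin, was the one target 4-fold or more apart, at 11.93 in GFP-high cells and 9.60 in granulocytes. Myh9 and Cacybp are given for their role as partners of S100A4 and S100A6, and were chosen after their values were seen. Myh9, the non-muscle myosin heavy chain that S100A4 binds, read 12.73 in GFP-low cells, 12.57 in Gfi1-deficient cells, 12.87 in GFP-high cells and 13.29 in granulocytes, and was nearly level where S100a4 was not. Cacybp, the calcyclin-binding protein gene, read 9.48, 9.53, 9.64 and 8.12 in the same order, lowest in granulocytes, where S100a6 was highest.

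S100a10, whose protein has lost calcium binding and is held in its active form, was high in the same populations as S100a4. Its brighter probe set read 11.74 in GFP-low cells, 11.98 in Gfi1-deficient cells, 7.85 in GFP-high cells and 7.72 in granulocytes. Its other probe set read 11.22, 11.50, 7.63 and 7.27 in the same order, so both gave the same ranking. S100a10 was 14.7-fold lower in GFP-high cells and 16.2-fold lower in granulocytes than in GFP-low cells, and 12.0-fold and 15.5-fold lower by the other probe set. GFP-high cells and granulocytes were not separated, with a log2 difference of -0.14 that changed sign under quantile normalization (0.05). S100a4, by contrast, was higher in granulocytes than in GFP-high cells.

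The annexins and the scaffold gene Ahnak, to which S100 proteins bind, did not all follow S100a10. Of 8 read, 4 were lower by 2-fold or more and 2 higher in GFP-high than in GFP-low cells, against 9.61% and 9.03% of all genes. The counts were also 4 and 2 for granulocytes against GFP-low cells, against 18.2% and 10.0%. None was 2-fold apart between Gfi1-deficient and GFP-low cells (0 of 8), where 1.91% of all genes were. Ahnak, which binds the complex of S100A10 with annexin A2, read 12.24 in GFP-low cells, 11.96 in Gfi1-deficient cells, 7.31 in GFP-high cells and 8.01 in granulocytes, close to the S100a10 pattern. Anxa2, the partner of S100A10 in that complex and named here after its values were seen, read 12.67, 12.75, 12.08 and 13.35 in the same order. It was highest in granulocytes, where S100a10 was lowest, and the Anxa2 log2 difference between granulocytes and GFP-low cells was 0.68 against -4.02 for S100a10. Anxa4 read 8.77 in GFP-low cells, 8.70 in Gfi1-deficient cells, 5.53 in GFP-high cells and 6.22 in granulocytes, and Anxa6 9.59, 9.44, 7.22 and 8.34. Anxa3 went the other way, at 9.50 in GFP-low cells, 9.35 in Gfi1-deficient cells, 11.98 in GFP-high cells and 11.91 in granulocytes.

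**Figure D2:**
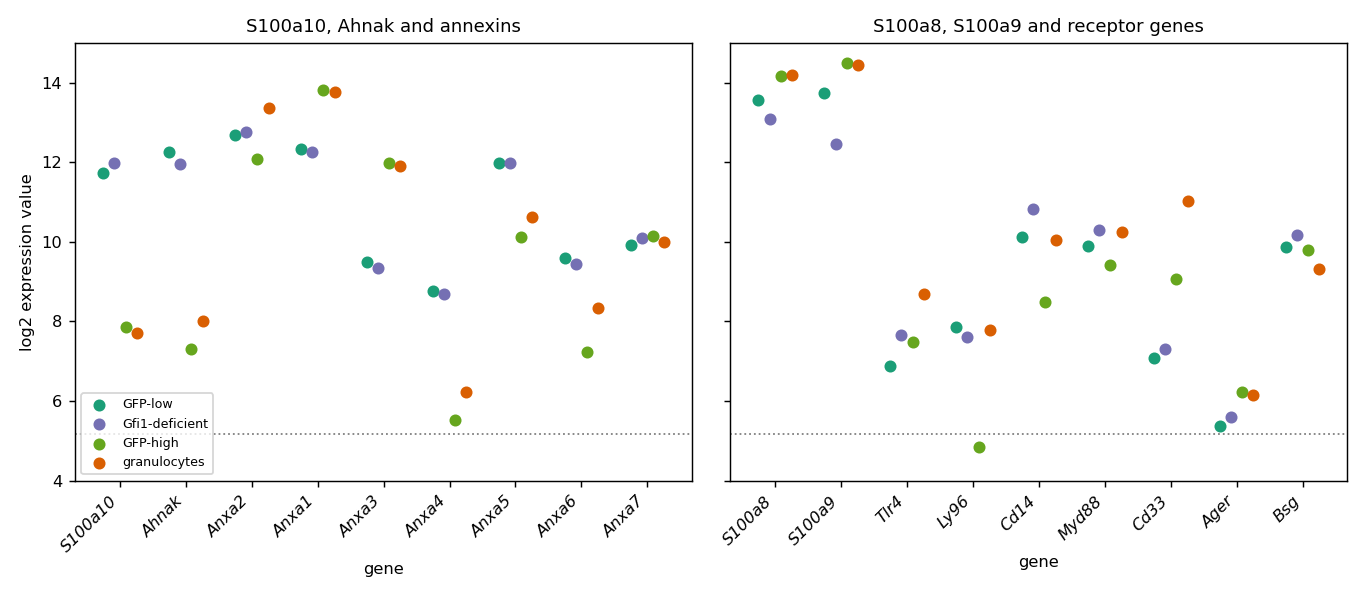
Log2 expression values (vertical axis) of S100a10 with Ahnak and the annexins (left) and of S100a8 and S100a9 with receptor genes (right), 1 point per array, coloured by population, with the floor of 5.18 dotted; levels of different genes come from different probe sets and are not to be compared. Ahnak separates the populations as S100a10 does, Anxa2 does not, and Ly96 is below the floor in GFP-high cells alone.

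S100a11, an annexin A1 partner, has no probe set of its own here. The probe set that the annotation gives to S100a11, its pseudogene S100a11-ps and the predicted gene Gm12854 read 12.69 in GFP-low cells, 12.79 in Gfi1-deficient cells, 13.24 in GFP-high cells and 13.79 in granulocytes. It was highest in granulocytes, with log2 differences of 1.10 to GFP-low and 1.01 to Gfi1-deficient cells, and it cannot be credited to S100a11 alone. It was left out of all counts of members.

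S100a1, best known from heart and skeletal muscle, had a pattern of its own. Its brighter probe set read 8.11 in GFP-low cells, 8.69 in Gfi1-deficient cells, 9.14 in GFP-high cells and 6.89 in granulocytes, and its other probe set 7.04, 7.52, 8.02 and 6.06. Both placed GFP-high cells highest and granulocytes lowest. Granulocytes were 4.73-fold below GFP-high cells, 3.47-fold below Gfi1-deficient cells and 2.32-fold below GFP-low cells. GFP-high cells exceeded GFP-low cells by a log2 difference of 1.03, just past the 2-fold rule, and by 0.98, just short of it, with the other probe set. The differences of Gfi1-deficient cells were 0.58 to GFP-low and -0.45 to GFP-high cells, both larger than the scatter and under 2-fold.

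S100a13 lies head to head with S100a1, and the starts used for their promoter windows are 105 bases apart on opposite strands. The RefSeq extent of S100a13 reaches into the window before this start, so the distance holds for that start alone. It read 9.69 in GFP-low cells, 9.94 in Gfi1-deficient cells, 9.66 in GFP-high cells and 9.58 in granulocytes, a span of 0.36 against 2.24 for S100a1. No difference of S100a13 reached 2-fold, and those among the 3 heterozygous populations, of 0.11 or less, were smaller than the probe set scatter. Between granulocytes and GFP-high cells the 2 genes had log2 differences of -2.24 for S100a1 and -0.08 for S100a13.

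**Figure D3:**
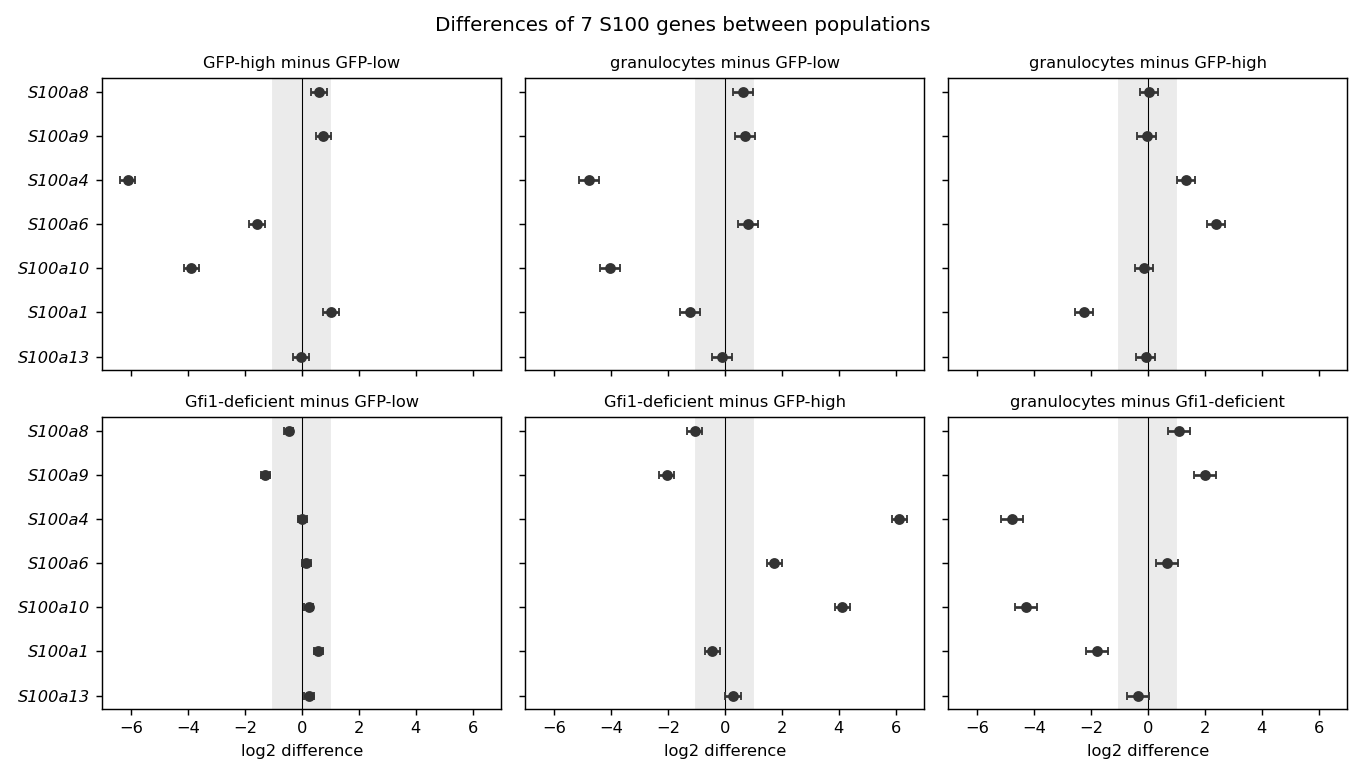
Log2 differences (horizontal axis, first population minus second) of the 7 S100 genes with their own probe set in the 6 comparisons; bars are plus and minus 1 SD of the scatter between probe sets of a gene, not a spread between animals, and the grey band marks differences under 2-fold. S100a4 and S100a10 lie far from 0 in 4 of the 6 panels, and in Gfi1-deficient minus GFP-low cells S100a9 alone leaves the band.

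Genes of other kinds beside the cluster, listed with Lor and Ivl, which lie between S100a9 and S100a11, had counts near the shares over all genes in the comparisons with GFP-low cells. Of 15 named on the arrays, 11 were above the floor, and 2 of 11 were higher by 2-fold or more and 0 lower in GFP-high than in GFP-low cells, against 18.6% of all genes in either direction. For granulocytes, 1 was higher and 2 lower than in GFP-low cells, against 28.2%, and 1 was higher and 3 lower than in Gfi1-deficient cells, against 31.5%, while 0 were higher and 1 lower than in GFP-high cells, against 25.3%. Between Gfi1-deficient and GFP-low cells 0 were apart, against 1.91%. Ilf2, a double-stranded RNA-binding protein gene close to S100a1, was the one gene 4-fold or more apart, at 7.13 in GFP-low cells, 7.62 in Gfi1-deficient cells, 8.31 in GFP-high cells and 5.25 in granulocytes. The order of its values was that of S100a1.

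Of 17 further S100 and fused S100-type genes looked for, 10 were named on the arrays and 2 of these were above the floor on any array. S100a16 read 6.46 in GFP-low cells, 6.18 in Gfi1-deficient cells, 6.53 in GFP-high cells and 6.70 in granulocytes. S100b, which lies outside the cluster, read 5.47, 5.40, 5.71 and 5.88 in the same order. Their spans over the 4 arrays were 0.51 and 0.48. The 8 below the floor were S100a3, S100a5, S100a14 and S100g and the epidermal genes Flg, Hrnr, Rptn and Tchh.

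The genes most like each member were found by the Euclidean distance between log2 values centred on each gene's mean over the 4 arrays, among 8620 candidates. With 4 arrays many genes share a pattern, so the neighbours are a description and say nothing of shared function. The nearest to S100a4 were Ccr2, the receptor with which monocytes leave the marrow, Ms4a8a and Ms4a4c, at distances of 0.53, 0.68 and 0.74. S100a10 was number 37 at 1.73. Values below the floor entered the distances as deposited, such as 4.34 for Ms4a8a in GFP-high cells. The nearest to S100a10 were Lrp1, an endocytic receptor, F13a1, the coagulation factor subunit used here as a monocyte marker, and Crip1, at 0.17, 0.21 and 0.27. The nearest to S100a6 were Gng2, a G protein subunit, Rnf149 and Tbc1d14, at 0.08, 0.18 and 0.18.

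The nearest to S100a8 were Dynlt3, a dynein light chain, Taf7 and Cspp1, at 0.06, 0.09 and 0.13, while S100a9, the gene of its dimer partner, was number 2257 at 0.79. Seen from S100a9, the nearest were Aplnr, the apelin receptor gene, Ebi3, a cytokine subunit, and Amotl2, at 0.22, 0.43 and 0.54, and S100a8 was number 42. These distances and ranks rest in part on readings at the top of the scale in GFP-high cells and granulocytes, so they give no order of likeness between the calprotectin genes. The nearest to S100a1 were Alyref, an mRNA export factor, the kinase gene Ikbke and Shmt2, a mitochondrial enzyme of folate metabolism, at 0.15, 0.15 and 0.16. S100a13 spanned under 1 log2 unit and was not matched.

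**Figure D4:**
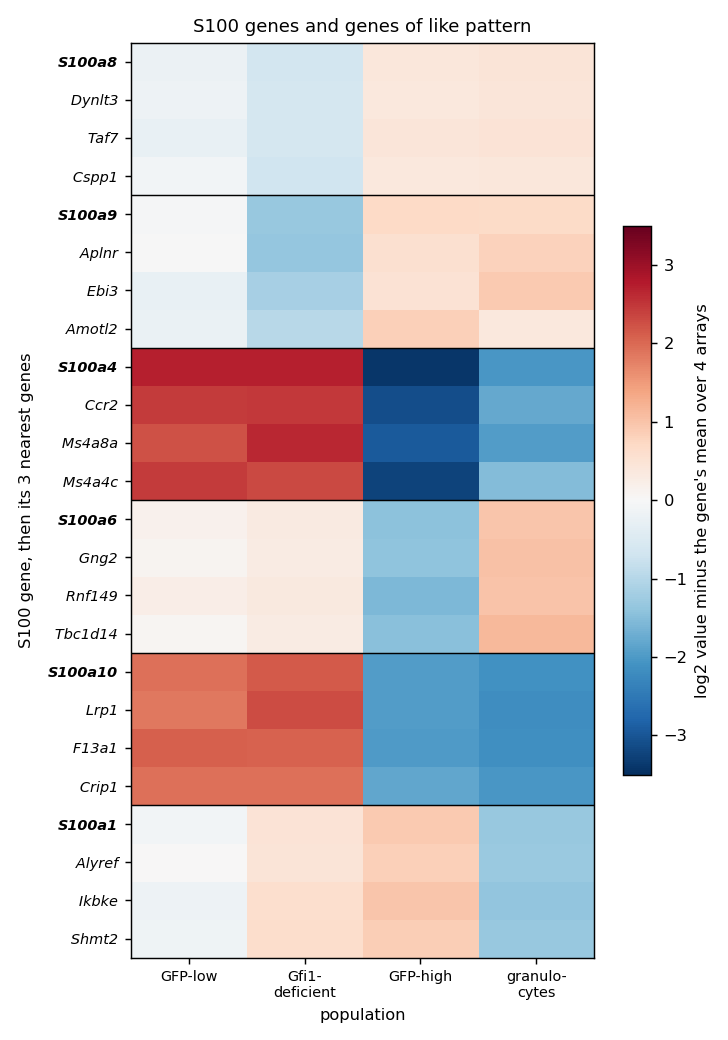
Log2 values minus each gene's mean over the 4 arrays (colour scale, in log2 units) for 6 S100 genes in bold and the 3 genes nearest to each, in the 4 populations (columns). The S100a4 and S100a10 blocks are red in GFP-low and Gfi1-deficient cells, the S100a6 block is lowest in GFP-high cells, and the S100a9 block is lowest in Gfi1-deficient cells.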

How the data were processed

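Labelled cRNA was made from 6 µg of TRIzol-extracted RNA for Affymetrix arrays, per the labels' protocols. The authors deposited log2 values for 22690 probe sets; the log base was inferred from their range of 2.70 to 14.50, and no label or header states how background, summarisation and normalization were done. Array medians ran from 5.91 to 6.01, so the values were used as deposited. Arrays have no read depth, and their number limits the precision.

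Of the probe sets, 20380 with 1 gene were used, 691 with several genes and 1606 with none were not, and the probe set of highest mean stood for a gene. For the differences, values under the floor were raised to it, and genes with both values there were left out of a comparison. Summed signals and the distances between genes used the values as deposited. Calls were by size (2-fold, 4-fold for naming list genes), with pandas 2.3.3 and Python 3.11.15, and the code was run on simulated data. The simulated noise was smaller than the probe set scatter and the planted differences lay past 2-fold. That run therefore does not check calls near 2-fold. The named genes were all members, the further S100 and fused S100-type genes on the arrays, and the 3 genes nearest to each member spanning 1 log2 unit. Genes of the lists other than cell type markers were named where 4-fold apart. Myh9, Cacybp, Anxa2, the markers and the sex-linked genes were named outside these rules. Probe set suffixes with _s or _x, as for S100a8 and a probe set each of S100a1 and S100a10, mark probes that can match related transcripts. Members and lists were chosen with earlier results of these data known. The alternatives were floors at the 20th and 60th percentile, no floor, the mean of a gene's probe sets, quantile normalization, and centring on array medians.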

Additional observations from a re-analysis of the deposited data

How the results depend on the processing

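With 1 array per population no replicate could be left out, and the arrays' values at the top of the scale limit what S100a8 and S100a9 can show. Over the 6 alternatives of processing, all 252 recomputed member differences moved by less than the scatter between probe sets and 0 crossed 2-fold. Most of these could not move. The lowest value that stood for a member, 6.89 for S100a1 in granulocytes, lay above the highest floor tried, 6.81. Changing or dropping the floor thus left every member difference as it was. The mean of probe sets could move only S100a1 and S100a10. Only quantile normalization and centring on array medians could move all members. Of the 42 member differences, 3 changed sign, each under 2-fold: S100a9 and S100a10 for granulocytes minus GFP-high cells (to 0.01 and 0.05 at most) and S100a13 for GFP-high minus GFP-low cells (to 0.02). The counts of members and of all genes apart by 2-fold or more stayed within 1.5 times of the values given. Adding the shared S100a11 probe set, an alternative chosen after the data were seen, moved the median of the members from -0.03 to 0.26 for GFP-high minus GFP-low cells, from -0.11 to 0.26 for granulocytes minus GFP-low cells, from 0.28 to -0.081 for Gfi1-deficient minus GFP-high cells and from -0.36 to 0.15 for granulocytes minus Gfi1-deficient cells, because 1 more gene shifts the middle of 7.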

Other observations

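Other calcium sensors of the cytosol, a list of 11 genes with 8 read on the arrays, also went both ways. In GFP-high against GFP-low cells 3 of 8 were higher by 2-fold or more and 1 lower, against 9.03% and 9.61% of all genes. In granulocytes against GFP-low cells 4 were higher and 1 lower, against 10.0% and 18.2%. Between granulocytes and GFP-high cells 0 were apart, against 25.3%, and between Gfi1-deficient and GFP-low cells 0 were apart, against 1.91%. Gca, which encodes grancalcin, read 10.36 in GFP-high cells and 9.64 in granulocytes, 5.24 in GFP-low cells, just above the floor, and 4.77 in Gfi1-deficient cells, below it. Capn2, the large subunit of a calpain, had the opposite pattern, at 10.74 in GFP-low and 11.05 in Gfi1-deficient cells against 5.43 in GFP-high cells and 5.32 in granulocytes. Plscr1, a phospholipid scramblase that is no classical EF-hand sensor, is among those counted as higher in GFP-high cells and in granulocytes. It read 6.17 in GFP-low cells, 7.10 in Gfi1-deficient cells, 9.92 in GFP-high cells and 9.52 in granulocytes.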
